A study of Mus musculus with 10 samples.

Results

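The mitochondrial ribosomal protein genes were taken as the rows of the expression table whose symbol begins with Mrpl or Mrps followed by a number, which gave 76 genes of the 13578 in the table. RefSeq lists 78 protein-coding mouse genes under such symbols. The remaining pair, Mrpl57 and Mrpl58, stand in the table under the older names Mrp63 and Ict1 and were described with the other mitochondrial translation genes. The members were spread over 17 chromosomes. Their mean values ran from 6.85 to 10.33 on the regularised log2 (rlog) scale, with a median of 8.85.

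RNA was sequenced from gonadal soma, sorted as the Oct4- cells of the gonad, of single female mice at embryonic day 13.5. Every embryo was Gulo-/- on the C57BL/6 background, so both groups lacked the enzyme that completes vitamin C synthesis and depended on the maternal diet. In 5 embryos the diet had been Vitamin C supplied, and in the other 5 vitamin C had been withdrawn over the early weeks of gestation (Vitamin C withdrawn). The comparison asked how the somatic gene expression of the fetal ovary differs without the vitamin, and the labels do not say which embryos share a litter, so that a p-value here measures only the spread between these embryos. In each group the titles of embryos 2 and 3 share their first number, whose meaning is not given. Values are named by group and embryo number, ± is the SD over n = 5 embryos, and a change is the withdrawn mean minus the supplied mean in rlog (log2) units.

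Sample medians lay between 9.12 and 9.14, and the read depth behind the values is unknown. The defining markers of the gonadal soma were present: all 13 listed genes had rows, and their mean rlog value per embryo was 11.70 to 11.83 in the supplied and 11.73 to 11.85 in the withdrawn group. Of 14 germ cell markers 6 had rows, and Pou5f1, which encodes Oct4, Ddx4 and Dazl were among the 8 without one. The germ cell list was at 6.20 to 6.39 against 6.17 to 6.31, and erythroid markers at 8.49 to 9.23 against 8.61 to 9.20. Single genes lay far from these list means. Over all embryos Kit averaged 9.79 and Nanos3 4.42 in the germ cell list, and Hbb-y 14.63 and Epor 5.36 in the erythroid list. The globins Hba-a1, Hba-a2 and Hbb-b1 had no row. Endothelial markers were at 8.52 to 8.71 against 8.46 to 8.58, and macrophage markers at 7.66 to 7.90 against 7.63 to 7.89. The part of these cell types in the values below was not tested.

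Mitochondria carry their own ribosome, which translates the few messages encoded in mitochondrial DNA, all of them core subunits of the respiratory chain and ATP synthase. Its ribosomal RNA comes from the mitochondrial genome, but every one of its proteins is encoded in the nucleus, made in the cytosol and imported, so that the nuclear genes described here must be matched to a mitochondrial partner. Some of the proteins descend from those of the bacterial ribosome, and others were added in the mitochondrial lineage. The small subunit (Mrps genes) reads the message and the large subunit (Mrpl genes) joins the amino acids. Loss of function in several of these genes causes disease of organs with high energy demand, and inherited changes in MRPS22 have been found in women with ovarian failure.

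The promoters of several members contain short motifs of factors tied to mitochondrial biogenesis. RefSeq promoter windows (250 bases before to 50 after the start, GRCm38.p6) were matched by symbol for 67 of the 76 members and searched on both strands. The ETS motif bound by GABP, CCGGAAGT, was in the windows of 12 members (17.9%), against 8.50% of the 9576 genes of the table with a window and 4.31% of all 27025 genes with one. The YY1 motif AAGATGGCG was in 8 members (11.9%), namely Mrpl35, Mrpl36, Mrpl37, Mrpl42, Mrps11, Mrps18a, Mrps24 and Mrps27, against 3.32% of table genes and 1.64% of all genes. The NRF1 motif CGCATGCG was in 7 (10.4%), among them Mrpl9, Mrpl32, Mrpl39 and the exit tunnel genes Mrpl17 and Mrpl22, against 4.28% and 2.07%. No motif searched contains another, and a gene counts once per motif. CCAAT was in 27 (40.3%) against 42.7% and 41.1%. A match describes letters in the window and is not a measured binding site.

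The sequences below are stretches upstream of the start that no annotated exon covers, printed 5′ to 3′ on the strand of the gene and taken from RefSeq, GRCm38.p6. They were chosen for Mrps22, the member that varied most closely with the other members, for Mrpl9, Mrpl43 and Mrps27 as carriers of motifs, for Mrps12, which shares its upstream region with another mitochondrial translation gene, and for Mrps15 and Mrps18a, the members of smallest p in each direction. Capitals mark matches to CCGGAAGT or CGCATGCG on either strand, and CCAAT was not capitalised.
Mrps22, chr9:98601680-98601929, minus strand: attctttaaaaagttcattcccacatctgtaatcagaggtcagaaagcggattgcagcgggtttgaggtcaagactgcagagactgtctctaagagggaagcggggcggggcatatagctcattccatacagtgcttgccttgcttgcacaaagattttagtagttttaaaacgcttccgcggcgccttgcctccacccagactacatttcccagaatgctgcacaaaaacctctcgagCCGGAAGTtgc
Mrpl9, chr3:94443086-94443317, plus strand: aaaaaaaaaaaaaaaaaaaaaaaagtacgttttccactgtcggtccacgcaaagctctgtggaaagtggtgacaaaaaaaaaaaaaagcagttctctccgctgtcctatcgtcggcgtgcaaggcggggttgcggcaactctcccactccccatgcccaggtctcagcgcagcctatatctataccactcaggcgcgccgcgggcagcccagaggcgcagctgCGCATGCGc
Mrpl43, chr19:45006443-45006557, minus strand: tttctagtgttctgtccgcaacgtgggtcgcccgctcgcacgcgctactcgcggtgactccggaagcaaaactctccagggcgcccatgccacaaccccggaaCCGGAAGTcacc
Mrps27, chr13:99344706-99344785, plus strand: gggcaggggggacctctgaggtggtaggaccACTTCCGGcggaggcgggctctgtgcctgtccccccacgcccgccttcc
Mrps12, chr7:28741822-28741991, minus strand: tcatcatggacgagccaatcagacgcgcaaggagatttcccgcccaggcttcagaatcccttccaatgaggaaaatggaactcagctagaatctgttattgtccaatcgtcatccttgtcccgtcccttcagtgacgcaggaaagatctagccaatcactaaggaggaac
Mrps15, chr4:126046678-126046924, plus strand: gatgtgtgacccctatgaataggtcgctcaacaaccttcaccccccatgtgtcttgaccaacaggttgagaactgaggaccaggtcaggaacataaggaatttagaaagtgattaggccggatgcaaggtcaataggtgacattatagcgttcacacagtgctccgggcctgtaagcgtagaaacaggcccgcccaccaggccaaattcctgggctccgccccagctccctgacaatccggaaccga
Mrps18a, chr17:46110754-46110985, plus strand: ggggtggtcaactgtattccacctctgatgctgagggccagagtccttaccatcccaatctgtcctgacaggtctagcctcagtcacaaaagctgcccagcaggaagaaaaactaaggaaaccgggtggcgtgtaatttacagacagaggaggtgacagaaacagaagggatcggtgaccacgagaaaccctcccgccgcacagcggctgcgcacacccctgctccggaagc
The stretches of Mrps22 and Mrpl43 each hold the ETS motif near their downstream end, and that of Mrpl9 holds the NRF1 motif next to its last base. In Mrps27 the ETS motif lies on the opposite strand. The stretches of Mrps12, Mrps15 and Mrps18a hold no capital letters, and the YY1 match of Mrps18a lies outside the printed stretch.

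No mitochondrial ribosomal protein gene passed the test between withdrawn and supplied embryos, and the members' changes were small on both sides of 0. Of 76 members, 33 were higher and 43 lower in the withdrawn mean. The share above 0 was 43.4% of the members, against a background of 50.2% of all genes. Leaving out 1 embryo at a time put between 27 (without withdrawn embryo 1) and 41 members (without supplied embryo 2) above 0. The median change was -0.0086 for the members and 0.00021 for all genes, and the median size of a change was 0.031 for the members and 0.032 for all genes. The changes ran from -0.0996 in Mrps22 (a withdrawn to supplied ratio of 0.933) to 0.11 in Mrpl35 (a ratio of 1.08).

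In limma over all 13578 genes with Benjamini-Hochberg adjustment at 0.05, 0 members and 3 genes were called (0.0221% of the genes tested). The 3 genes, Zfp783, Rps4y2 and 1700106J16Rik, were named after their values were seen, and each fell. The smallest adjusted p of a member in limma was 0.928. At an unadjusted limma p under 0.05 there were 4 members (5.26%), 2 higher and 2 lower, beside a background of 5.3%, and the share in each direction was 2.63% of the members against 2.45% higher and 2.84% lower of all genes. The exact permutation p was under 0.05 before adjustment in 4 members (5.26%) and in 5.19% of all genes. In 0 members did the groups not overlap, against 0.81% of all genes. These shares lie near the background.

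The intervals give a range of change for each gene on this scale. They were taken gene by gene, without adjustment for the number of members, and treat the embryos as independent. All 95% limma intervals of the 76 members lay between -0.24 and 0.22. The bound of largest size, 0.243, was the lower one of Mrps22 and stands for a level 1.18-fold lower in the withdrawn embryos. In 68 members the whole interval lay within 0.2 of 0, and in all 76 it lay within 0.3. A change under 0.05 in size was found in 50 members (65.8%, against 69.0% of all genes) and one over 0.1 in 3 members (3.95%, against 6.44%). Of all genes, 4.79% had a change larger in size than any member. Rlog values shrink the changes of weakly expressed genes, so the ratios can understate folds, by an amount that is not known without counts. In bulk RNA, fewer cells of a type and less RNA per cell cannot be told apart.

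**Figure D1:**
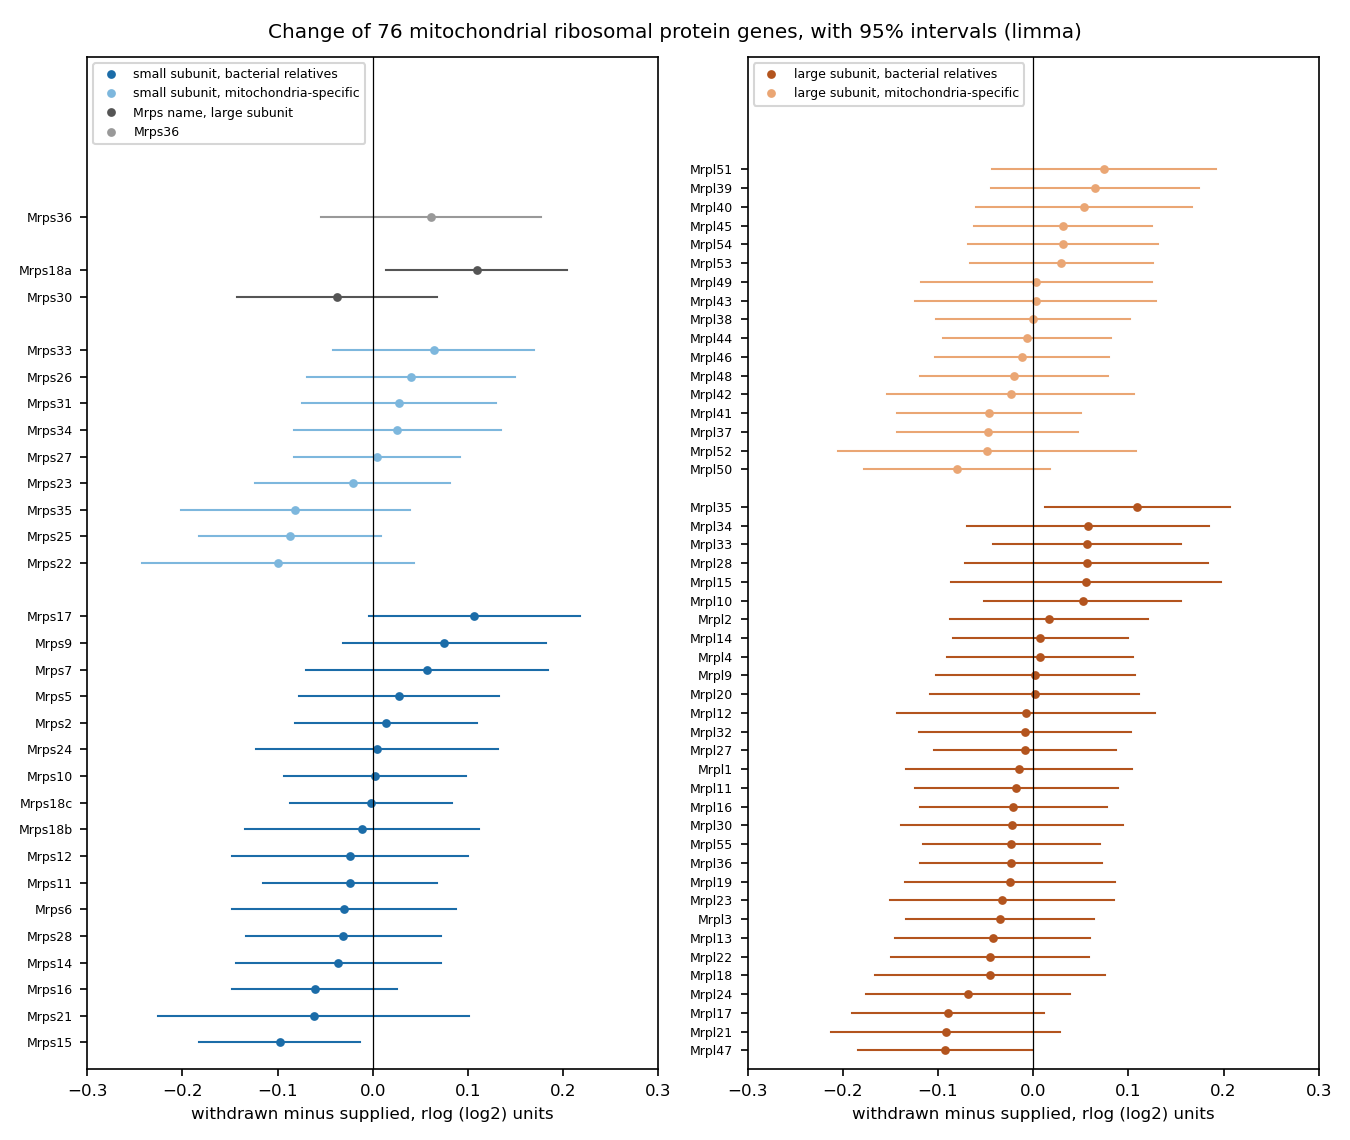
The horizontal axis is the change of each of the 76 members (withdrawn minus supplied, rlog units; point) with its 95% limma interval (line), coloured by role, n = 5 embryos a group. Points lie on both sides of 0, between -0.0996 and 0.11, and most intervals cross 0.

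In the small subunit, 12 of 26 members were above 0 and 14 below, with a median change of -0.0066 and 0 called. The 17 members with bacterial relatives had 7 above 0 and a median of -0.011, and the 9 mitochondria-specific ones had 5 above 0 and a median of 0.0044. Mrps15, a protein of the bacterial-type core that binds ribosomal RNA early in assembly, was at 9.55, 9.60, 9.63, 9.59 and 9.58 in supplied embryos 1 to 5 and at 9.51, 9.55, 9.46, 9.49 and 9.45 in withdrawn embryos 1 to 5. The groups touched at 1 point only, where withdrawn embryo 2 reached the level of supplied embryo 1, the lowest of its group. The means were 9.59 ± 0.0276 and 9.49 ± 0.0407, a change of -0.097 (SE 0.0401, 95% interval -0.18 to -0.013), with a limma adjusted p of 0.928 and an exact two-sided permutation p of 0.0159 that is not adjusted. Mrps15 also had the smallest spread within groups of all members, with a residual SD of 0.0348.

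Mrps17, another protein of the bacterial-type core, differed the other way, from 8.77 ± 0.0575 to 8.87 ± 0.103. Its values were 8.70, 8.81, 8.73, 8.75 and 8.84 in the supplied and 8.997, 8.96, 8.76, 8.78 and 8.86 in the withdrawn embryos. Withdrawn embryos 1, 2 and 5 stood above every supplied embryo, and withdrawn embryos 3 and 4 lay inside the supplied range. The change of 0.11 (95% interval -0.0042 to 0.22) had a limma adjusted p of 0.931 and an exact permutation p of 0.0873.

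Mrps22, a mitochondria-specific protein of the small subunit, had the largest negative change of any member, -0.0996 (SE 0.0676, 95% interval -0.24 to 0.043), with a limma adjusted p of 0.972. It was at 9.62, 9.77, 9.61, 9.46 and 9.51 in the supplied embryos and at 9.69, 9.36, 9.39, 9.45 and 9.59 in the withdrawn embryos. The groups overlapped over most of their ranges: withdrawn embryo 1 was higher than 4 of the 5 supplied embryos. Leaving out supplied embryo 2 gave -0.055, leaving out withdrawn embryo 1 gave -0.15, and the change was -0.046 with embryos 2 and 3 of each group averaged. The SDs of 0.12 and 0.138 made its residual SD, 0.129, one of the 3 largest among the members.

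Mrps25, also mitochondria-specific, was at 9.71, 9.73, 9.69, 9.69 and 9.56 in the supplied and at 9.62, 9.56, 9.60, 9.52 and 9.65 in the withdrawn embryos. Supplied embryos 1 to 4 stood above every withdrawn embryo, whereas supplied embryo 5 lay inside the withdrawn range. The means were 9.68 ± 0.0674 and 9.59 ± 0.0512, a change of -0.086 with a limma adjusted p of 0.949. Exons of Mrps25 overlap those of Nr2c2 on the opposite strand, and no source used here says whether reads were assigned by strand.

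Mrps9, whose tail reaches towards the tRNA in ribosomes, had means of 9.34 ± 0.0775 and 9.42 ± 0.078 in overlapping groups (change 0.075, limma adjusted p 0.966). Mrps16, which belongs to the bacterial-type core, had means of 7.49 ± 0.0534 and 7.43 ± 0.0488 (change -0.061, limma adjusted p 0.965). Mrps21 had the largest residual SD of any member, 0.155. Its values were 8.98, 9.03, 9.05, 8.73 and 8.66 in the supplied and 9.01, 8.69, 8.77, 8.81 and 8.86 in the withdrawn embryos, so that each group held both high and low embryos. The change was -0.062 (95% interval -0.23 to 0.10), and the supplied SD was 0.184. Mrps27, a pentatricopeptide repeat protein of the RNA-binding kind, was among the steadiest, with all 10 embryos between 9.36 and 9.47 and a change of 0.0044 (95% interval -0.083 to 0.091).

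Of the 3 paralogs that descend from bacterial S18, Mrps18b and Mrps18c sit in the small subunit, and Mrps18a sits in the large subunit in spite of its name. Mrps18a was at 9.13, 9.01, 9.08, 9.06 and 9.08 in the supplied embryos and at 9.25, 9.11, 9.13, 9.17 and 9.24 in the withdrawn embryos. Withdrawn embryos 1, 4 and 5 stood above every supplied embryo, and withdrawn embryos 2 and 3 lay at or below supplied embryo 1. The means of 9.07 ± 0.0459 and 9.18 ± 0.0651 gave a change of 0.11 (SE 0.0449, 95% interval 0.014 to 0.20), with a limma adjusted p of 0.928 and an exact permutation p of 0.0238.

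The other paralogs had means that hardly differed. Mrps18b was at 8.46 ± 0.133 and 8.45 ± 0.0535 (change -0.011, 95% interval -0.13 to 0.11), and Mrps18c at 7.30 ± 0.0309 and 7.30 ± 0.0675 (change -0.0019, 95% interval -0.087 to 0.084). The difference between the paralogs' changes was not tested. Mrps30, the other Mrps-named protein of the large subunit, was at 9.88 ± 0.0849 and 9.84 ± 0.0691, a change of -0.037 in overlapping groups. Mrps18b has a near-identical copy elsewhere in the genome, and Mrps30 overlaps an antisense gene, so their counts are uncertain.

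Mrps36 matches the rule by name, but its protein is a subunit of the 2-oxoglutarate dehydrogenase complex of the citric acid cycle and not of the ribosome. It was at 7.98, 7.87, 7.85, 7.97 and 7.82 in the supplied and at 8.14, 7.84, 7.94, 7.95 and 7.93 in the withdrawn embryos. Withdrawn embryo 1 was the highest of all 10, and the other withdrawn embryos lay within the supplied range. The change was 0.062 (95% interval -0.054 to 0.18), and the pseudogenes Mrps36-ps1 and Mrps36-ps2 are near-identical to it.

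**Figure D2:**
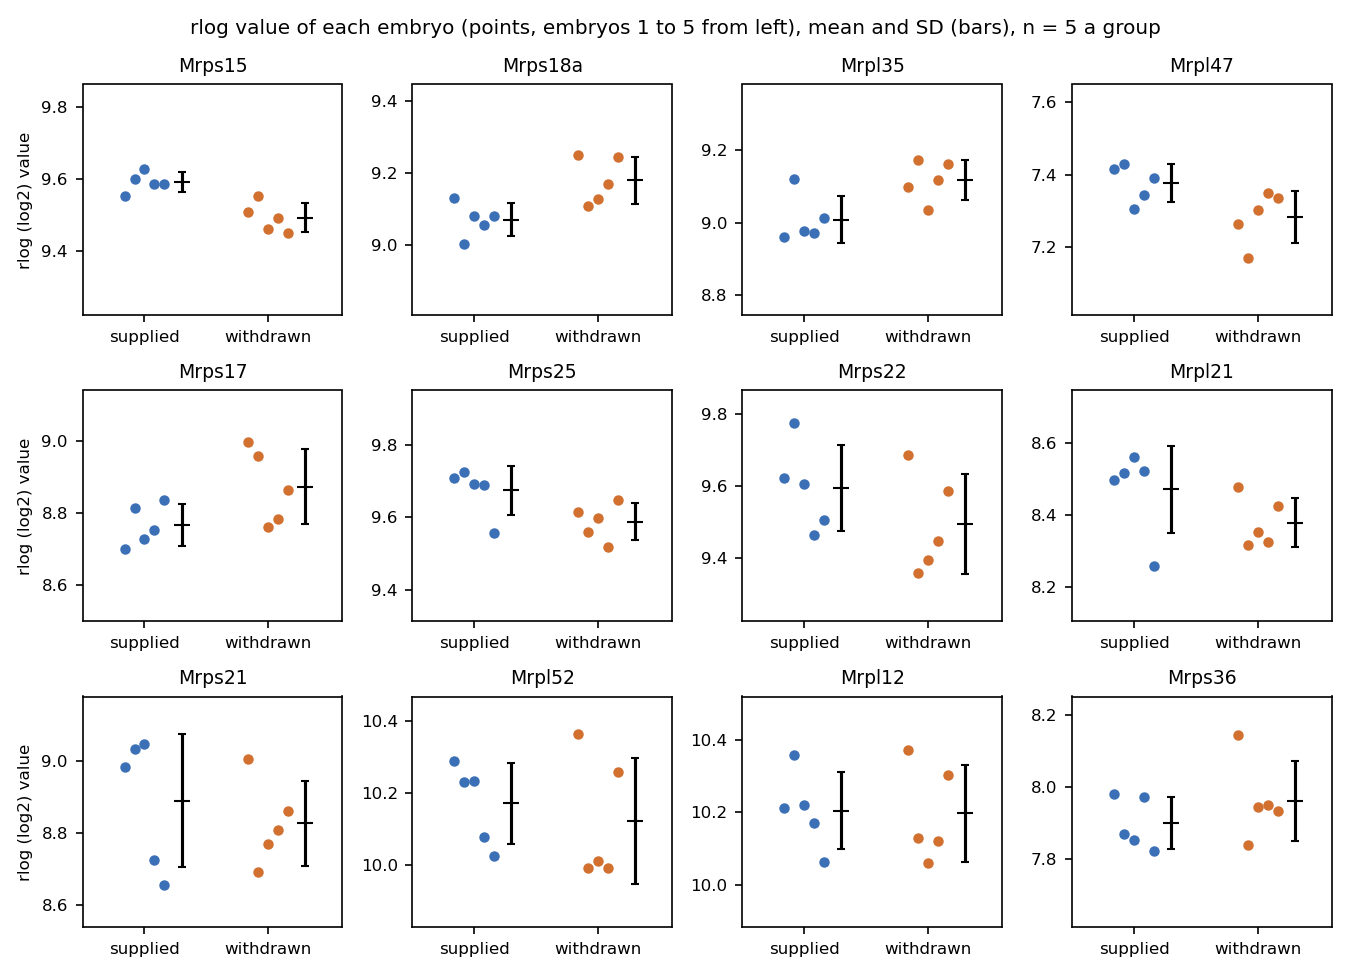
Each panel shows the rlog value of 1 member in the 5 supplied and 5 withdrawn embryos (points, embryos 1 to 5 from left) with the mean and SD of each group (bar), on axes of equal height. Mrps15 is lower and Mrps18a and Mrpl35 are higher in the withdrawn means, each with overlapping groups, and Mrps21, Mrpl52 and Mrpl12 spread widely within both groups.

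In the large subunit, 20 of 49 members were above 0 and 29 below, with a median change of -0.0086 and 0 called. The 30 members with bacterial relatives had 11 above 0 and a median of -0.016, and the 17 mitochondria-specific ones had 8 above 0 and a median of -0.0005. Mrpl35, of the bacterial-type core, had the largest positive change of all members. It was at 8.96, 9.12, 8.98, 8.97 and 9.01 in the supplied and at 9.10, 9.17, 9.03, 9.12 and 9.16 in the withdrawn embryos. Only supplied embryo 2 reached into the withdrawn range. The means of 9.01 ± 0.0659 and 9.12 ± 0.0557 gave a change of 0.11 (SE 0.0461, 95% interval 0.012 to 0.21), with a limma adjusted p of 0.928 and an exact permutation p of 0.0397.

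The proteins around the peptide exit tunnel, through which the new chain leaves towards the inner membrane, had 1 of 6 above 0 and 5 below, a median change of -0.057 and 0 called, beside -0.0086 for all members. Without 1 embryo the median ran from -0.075 to -0.041, with 1 or 2 above 0. The other structural sites were not counted again in this way, and the lists were chosen with earlier results known. These counts therefore cannot show that a fall is particular to the tunnel. Mrpl47 was at 7.42, 7.43, 7.30, 7.34 and 7.39 in the supplied and at 7.26, 7.17, 7.30, 7.35 and 7.33 in the withdrawn embryos. Withdrawn embryos 1 and 2 stood well below every supplied embryo and embryo 3 level with the lowest, and the other 2 lay within the supplied range. The change was -0.093 (SE 0.0433, 95% interval -0.18 to -0.0017), with a limma adjusted p of 0.931 and an exact permutation p of 0.0476. Its exons overlap Actl6a and Ndufb5 on the opposite strand.

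Mrpl17 was at 9.44, 9.60, 9.44, 9.50 and 9.51 in the supplied and at 9.45, 9.35, 9.51, 9.35 and 9.38 in the withdrawn embryos. Withdrawn embryos 2, 4 and 5 were below every supplied embryo, and 1 and 3 were not. Its change was -0.089 (95% interval -0.19 to 0.011). The other tunnel proteins gave -0.068 in Mrpl24 (9.33 ± 0.0694 and 9.26 ± 0.0856), -0.045 in Mrpl22 (8.49 ± 0.0626 and 8.45 ± 0.082) and -0.033 in Mrpl23 (8.52 ± 0.0966 and 8.48 ± 0.0916), all with overlapping groups. Mrpl45, which holds the ribosome to the inner membrane, was the member above 0, at 9.41 ± 0.0553 and 9.44 ± 0.0532 (0.032, 95% interval -0.062 to 0.12). Mrpl22 and Mrpl23 have near-identical copies, and Mrpl24 overlaps Rrnad1 on the opposite strand.

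The stalk that recruits translation factors is built from Mrpl10, Mrpl11 and Mrpl12. Mrpl12, its most mobile protein, was at 10.21, 10.36, 10.22, 10.17 and 10.06 in the supplied and at 10.37, 10.13, 10.06, 10.12 and 10.30 in the withdrawn embryos. The highest supplied and the highest withdrawn embryo were nearly level, as were the lowest ones. Its change was -0.0078 (95% interval -0.14 to 0.13) with a residual SD of 0.121. Mrpl10, to which Mrpl12 attaches, was at 9.24 ± 0.0878 and 9.29 ± 0.0524 (0.052), and Mrpl11, at the stalk base, at 8.75 ± 0.0571 and 8.73 ± 0.0923 (-0.018). Neither pair of groups was separate. Mrpl10 and Mrpl12 each overlap an antisense gene.

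The central protuberance, the crown of the large subunit, was described by Mrpl38, Mrpl40, Mrpl46 and Mrpl48. Mrpl38 was the member nearest to no change, at 9.68 ± 0.0916 and 9.68 ± 0.0416 (-0.0005, 95% interval -0.10 to 0.10). Mrpl40 was at 8.54 ± 0.0636 and 8.59 ± 0.106 (0.053), Mrpl46 at 8.50 ± 0.0462 and 8.49 ± 0.0515 (-0.012), and Mrpl48 at 8.85 ± 0.0804 and 8.83 ± 0.0379 (-0.020). The groups overlapped in all 4. Exons of Mrpl46 overlap Mrps11 and those of Mrpl48 overlap Rab6a, both on the opposite strand.

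Among the remaining large subunit members, Mrpl21 was at 8.50, 8.52, 8.56, 8.52 and 8.26 in the supplied and at 8.48, 8.32, 8.35, 8.33 and 8.43 in the withdrawn embryos. Supplied embryo 5 was the lowest of all 10, while the other supplied embryos were above every withdrawn one. The change was -0.092 (95% interval -0.21 to 0.028) with all embryos and -0.14 without supplied embryo 5, and the limma adjusted p was 0.963 and 0.668. Mrpl21 overlaps Ighmbp2 on the opposite strand and has a near-identical copy.

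Mrpl52, a mitochondria-specific protein with one of the widest spreads, was at 10.29, 10.23, 10.23, 10.08 and 10.03 in the supplied and at 10.36, 9.99, 10.01, 9.99 and 10.26 in the withdrawn embryos. In the withdrawn group embryos 1 and 5 stood apart above the other 3, and 4 of the 5 supplied embryos lay between these clusters. The change was -0.048, and the SDs were 0.113 and 0.175. Mrpl51 and Mrpl39, also mitochondria-specific, had changes of 0.075 (8.83 ± 0.0894 and 8.91 ± 0.0968) and 0.065 (10.03 ± 0.0319 and 10.09 ± 0.114), with limma adjusted p of 0.978 for both. Mrpl37 was at 9.55 ± 0.0565 and 9.50 ± 0.0605 (-0.048). Mrpl42 was at 9.85 ± 0.10 and 9.82 ± 0.124 (-0.024). Mrpl44, which carries a fold of the ribonuclease III family, was steady at 8.10 ± 0.0544 and 8.09 ± 0.0317 (-0.0062).

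Counting was uncertain for a part of the members. Exons of 30 members overlap another annotated gene, 5 on the same strand and 27 on the opposite strand with 2 counted under both, and 9 members have a near-identical copy elsewhere (at least 95% identity over at least 200 bases and 50% of the transcript).

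Members differed in level far more than the groups did. Levels were compared per length, as the mean rlog value minus the log2 of the summed exon length of the coding transcripts in kb, untranslated parts included, over 11948 genes with a length (88.0% of the table). The members' median was 8.26, with quartiles at 7.46 and 8.76, against a median of 7.55 over all genes, 9.74 over nuclear-encoded respiratory chain subunits and 13.04 over cytosolic ribosomal proteins. On this scale the highest member was Mrpl52 at 11.17, followed by Mrpl42 at 10.39, Mrps21 at 9.88 and Mrpl12 at 9.80. The lowest were Mrpl47 at 5.58 and Mrps16 at 6.09. Highest and lowest differed 48.3-fold.

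The order depends on the length taken. With the median transcript length in place of the summed exons, 7 of the 10 highest and 6 of the 10 lowest members were the same. Mrps17, whose exons sum to 6003 bases, was at 6.23 and ranked 74 with the summed exons but 16 with the median transcript. The first 4, Mrpl52, Mrpl42, Mrps21 and Mrpl12, kept their ranks under both. Mrpl42 and Mrps21 have near-identical copies, so their levels are uncertain. Mrps12, whose protein lies at the decoding centre, was at 8.31 and ranked 37.

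**Figure D3:**
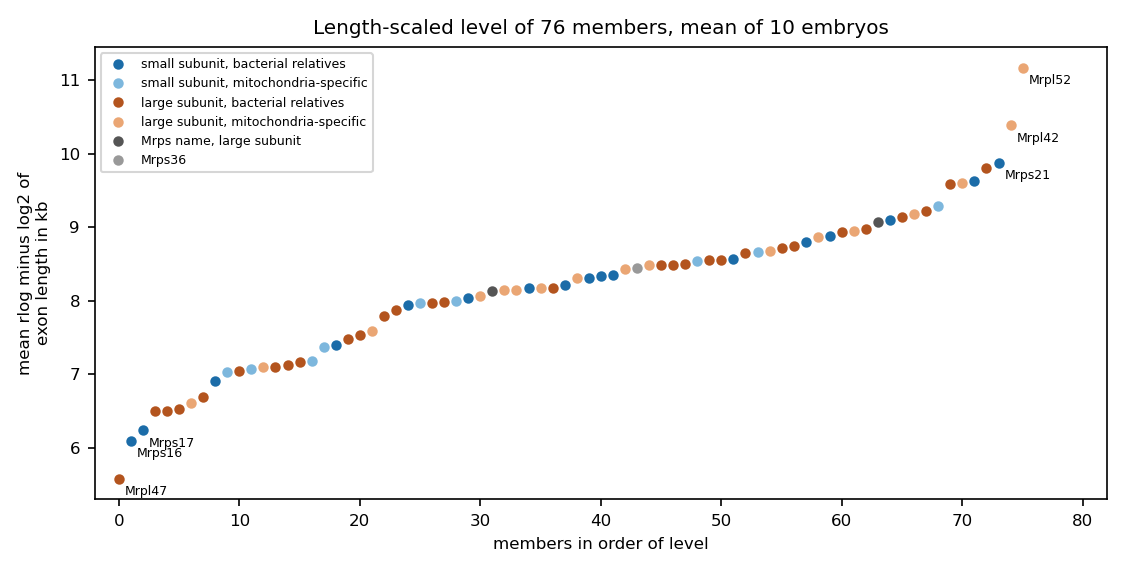
The vertical axis is the mean rlog value over 10 embryos minus the log2 of the summed exon length in kb (untranslated parts included), and the horizontal axis orders the 76 members by it, coloured by role. Levels run from 5.58 (Mrpl47) to 11.17 (Mrpl52), and small and large subunit members are mixed along the order.

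The members' spread between single embryos was near that of all genes. Over all 10 embryos a member's rlog values spanned 0.113 to 0.414, with a median span of 0.231. The residual SD within groups had a median of 0.0773 in the members and 0.0730 in all genes, and 41 of the 76 members were above the all-gene median. Mrps21 (0.155), Mrpl52 (0.147) and Mrps22 (0.129) varied most, and Mrps15 (0.0348), Mrps27 (0.0402) and Mrpl44 (0.0445) least.

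The variation had a common part that followed single embryos. The mean deviation of the 76 members from their own means was 0.014, 0.050, 0.021, -0.040 and -0.032 in supplied embryos 1 to 5. It was 0.061, -0.033, -0.040, -0.024 and 0.024 in withdrawn embryos 1 to 5. Withdrawn embryo 1 and supplied embryo 2 were the highest, and each group held embryos on both sides of 0. In withdrawn embryo 1, 59 of the 76 members were above their own mean, and in supplied embryo 2, 57 were. In withdrawn embryo 3, 20 were.

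Genes of the cytosolic ribosome and the respiratory chain were, like the members, highest in withdrawn embryo 1. Both were lowest in supplied embryo 5, whereas the members were lowest in supplied embryo 4 and withdrawn embryo 3 (-0.040 each). The 75 cytosolic ribosomal protein genes had a mean deviation of 0.20 in withdrawn embryo 1 and -0.12 in supplied embryo 5, and between -0.055 and 0.049 in the other 8. The 73 respiratory chain genes were at 0.12 in withdrawn embryo 1, 0.076 in supplied embryo 2 and -0.077 in supplied embryo 5. Between the groups, 59 of 75 cytosolic ribosomal genes were above 0 with a median change of 0.043, and 36 of 73 respiratory chain genes with a median of -0.00043, with 0 called in both. The rise in the cytosolic ribosomal genes rested largely on withdrawn embryo 1. Without it, 36 of the 75 were above 0 with a median of -0.0022. Leaving out supplied embryo 5 gave 45 of 75 (median 0.014), and leaving out supplied embryo 3 gave 67 (0.057). The respiratory chain count moved with several embryos. It was 23 of 73 without withdrawn embryo 1 (median -0.027), 26 without supplied embryo 5 (-0.018) and 45 without supplied embryo 2 (0.016). What set withdrawn embryo 1 apart was not tested.

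**Figure D4:**
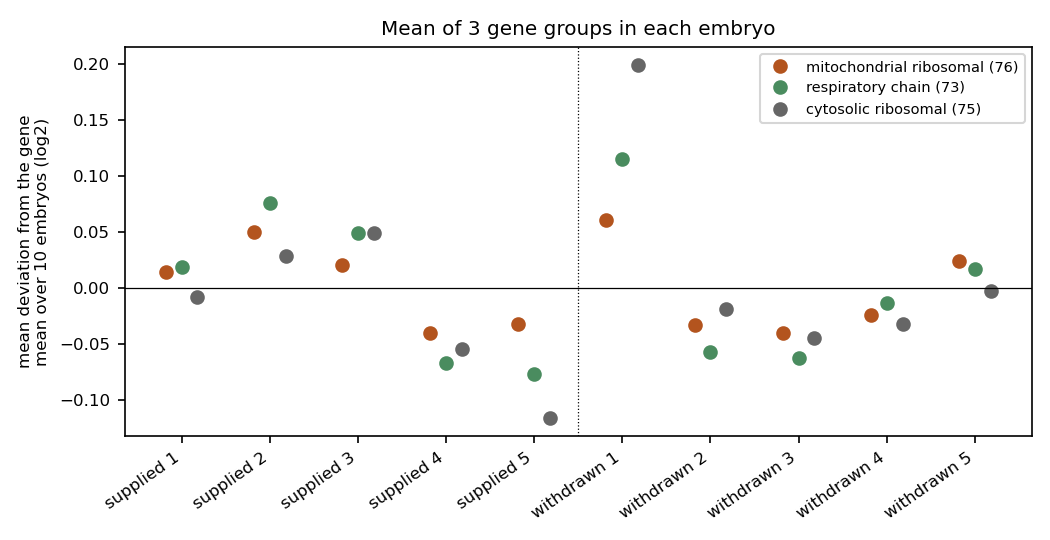
The vertical axis is the mean deviation (log2) of each gene group from its genes' means over the 10 embryos, and each position on the horizontal axis is 1 embryo. Withdrawn embryo 1 is the highest for all 3 groups, at 0.061 for the mitochondrial ribosomal, 0.12 for the respiratory chain and 0.20 for the cytosolic ribosomal genes.

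Co-variation was described by Pearson's r of group-centred rlog values over the 10 embryos, which share libraries, depth and scaling. The median r over the 2850 pairs of members was 0.233, and 22.1% of the pairs were above 0.5. Over all 92174253 pairs of genes the median was -0.0007, and 10.4% were above 0.5. The median was 0.786 within the cytosolic ribosomal genes and 0.575 within the respiratory chain genes. Within the small subunit it was 0.313 (325 pairs), within the large subunit 0.207 (1176 pairs) and between the subunits 0.235. The members' median r with cytosolic ribosomal genes was 0.358 and with respiratory chain genes 0.347, each above that among the members themselves. These medians across lists were not taken again without each embryo, so whether this order rests on a single embryo was not tested.

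The co-variation was uneven among members. Of the 76, 69 had a median r above 0 with the other members. Mrps22 had the highest, 0.52, and its nearest member was Mrpl12 with an r of 0.92. Mrpl52 and Mrps21 (0.46 each) and Mrpl9 (0.45) came next, and Mrpl16 (-0.17) and Mrpl11 (-0.095) were lowest. Leaving out 1 embryo at a time gave members' medians of 0.179 to 0.261, cytosolic ribosomal medians of 0.607 to 0.816 and respiratory chain medians of 0.470 to 0.621, and each lowest value was the one without withdrawn embryo 1.

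**Figure D5:**
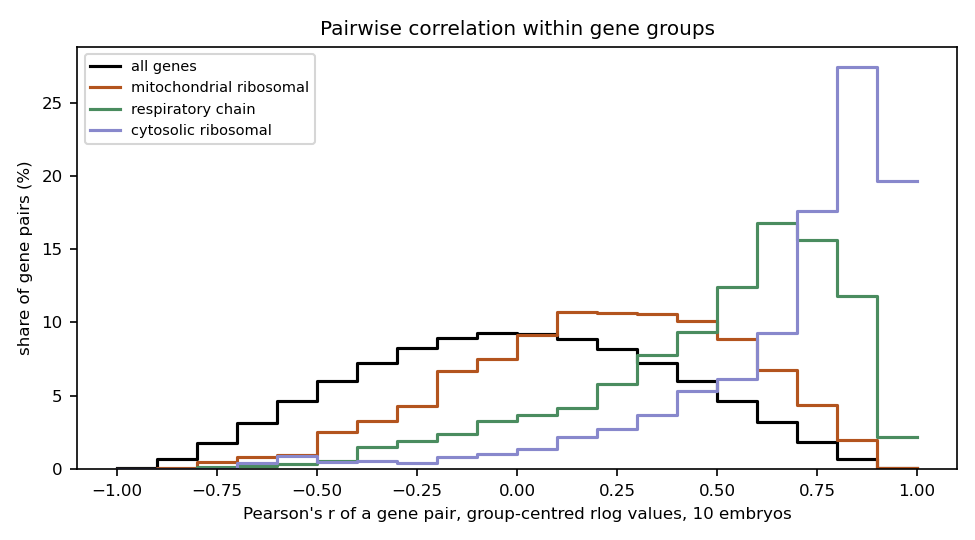
The horizontal axis is Pearson's r of a pair of genes over 10 embryos after group centring, and the vertical axis is the share of pairs in %. All pairs are centred near 0 (median -0.0007), the mitochondrial ribosomal pairs lie somewhat to the right (0.233), and the respiratory chain (0.575) and cytosolic ribosomal pairs (0.786) lie furthest right.

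Many members start close to the start of a protein-coding gene on the opposite strand. On GRCm38, 32 of the 76 (42.1%) had such a gene with its start within 1000 bases, against 15.0% of 11948 genes. Starts were the outermost annotated ones, and non-coding neighbours were not counted. The count takes in starts that lie apart and starts that lie past each other, so that the 5′ ends overlap, as in Mrpl48 with Rab6a and Mrpl18 with Tcp1. Mrps11 and Mrpl46 are each other's neighbour, so these were 31 pairs, and 28 had a row for both genes. Partners include genes of the same pathway. Sars2, the mitochondrial seryl-tRNA synthetase, starts 172 bases from Mrps12, whose upstream stretch is printed above. Ptcd2 starts 81 bases from Mrps27. Twnk (Peo1 in the table), the mitochondrial DNA helicase, starts inside the outermost GENCODE bounds of Mrpl43, and annotated exons of the pair overlap. The Mrpl43 stretch printed above was taken at the RefSeq start, and there an exon of Twnk lies upstream of the stretch.

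Correlations within these pairs lay on both sides of 0. The median r of the 28 pairs was -0.021, and 14 were above 0. It was -0.0080 in the 12 pairs whose exons overlap and -0.081 in the 16 whose exons do not. The withdrawn minus supplied change had the same sign in 12 of the 28, and 0 neighbours were called. Single pairs ranged widely: r was 0.83 for Mrpl30 with Mitd1, 0.77 for Mrpl49 with Fau and 0.75 for Mrpl18 with Tcp1, but -0.15 for Mrps11 with Mrpl46 and -0.50 for Mrps18b with Ppp1r10. Sars2 was at 8.30 ± 0.0503 and 8.23 ± 0.0577 (change -0.068), beside -0.024 for Mrps12. Ptcd2 was at 8.92 ± 0.093 and 8.84 ± 0.0727 (-0.084), beside 0.0044 for Mrps27.

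The other genes of mitochondrial gene expression were read from 6 lists, in which 0 genes were called. Of 7 mitoribosomal proteins with other names, 3 were above 0 and 4 below, with a median of -0.030. Dap3, a GTP-binding protein of the small subunit, was at 9.78 ± 0.0893 and 9.83 ± 0.0737 (0.056), and Ptcd3, a pentatricopeptide repeat protein of the small subunit, at 10.08 ± 0.11 and 10.05 ± 0.0488 (-0.030). Mrp63 was at 8.38 ± 0.0923 and 8.32 ± 0.0726 (-0.057), and Chchd1 at 8.52 ± 0.05 and 8.47 ± 0.0593 (-0.050). All 4 had overlapping groups.

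Of 31 listed symbols of mitoribosome assembly genes, 24 had rows, with 8 above 0, 16 below and a median of -0.018. Some genes were listed under both an older and a newer symbol, so symbols without a row are not all unmeasured genes. The ribosomal RNA methyltransferase Rnmtl1, now Mrm3, was at 7.64 ± 0.0422 and 7.57 ± 0.0776 (-0.075). The GTPase Gtpbp5 was at 7.72 ± 0.0618 and 7.65 ± 0.0457 (-0.071), and the small subunit assembly factor Rbfa at 9.39 ± 0.0768 and 9.45 ± 0.0571 (0.062). The limma adjusted p was 0.961, 0.962 and 0.978 in that order.

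Of 14 translation factors, 8 were above 0 and 6 below, with a median of 0.0042. Mtfmt, which formylates the initiator methionyl-tRNA, was the 1 gene of the 91 in these lists with a row (1.1%) whose groups did not overlap, beside 0.81% of all genes. It was at 8.38, 8.33, 8.32, 8.38 and 8.52 in the supplied and at 8.31, 8.30, 8.31, 8.24 and 8.28 in the withdrawn embryos, so that every withdrawn embryo lay below every supplied one. The change was -0.099 (SE 0.0454, 95% interval -0.19 to -0.0028), with a limma adjusted p of 0.931. Its exact permutation p of 0.00794 is the smallest that reordering these embryos can give and is not adjusted. Tufm, the elongation factor that brings tRNA to the ribosome, was at 10.65 ± 0.0765 and 10.65 ± 0.0525 (0.0020), the recycling factor Gfm2 at 9.28 ± 0.056 and 9.32 ± 0.0389 (0.041), and the release factor Mtrf1l at 8.80 ± 0.114 and 8.73 ± 0.134 (-0.071).

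Genes that charge mitochondrial tRNAs were listed as 21 symbols, older and newer names included. Of these symbols 19 had rows, with 11 above 0, 8 below and a median of 0.017. Lars2, the leucyl-tRNA synthetase, had a far higher rlog value than any member. Its length-scaled level, 17.51, was the highest of the 11948 genes with a length, beside a median of 13.04 over cytosolic ribosomal proteins. Lars2 was at 19.04, 19.00, 19.61, 19.37 and 19.29 in the supplied and at 19.92, 19.68, 19.41, 19.59 and 19.83 in the withdrawn embryos. Withdrawn embryos 1, 2 and 5 stood above every supplied embryo, and 3 and 4 did not. The change was 0.42 (95% interval 0.15 to 0.69), with a limma adjusted p of 0.865 and an exact permutation p of 0.0238. No gene had a larger rise. Lars2 held the same rank in every embryo, so that its change was 0 with quantile normalization. Which reads make up this level was not tested. The change therefore describes the row of this name and may not be that of the synthetase message. Yars2 was at 8.69 ± 0.0564 and 8.60 ± 0.0705 (-0.089), and Wars2 at 8.16 ± 0.0914 and 8.24 ± 0.0352 (0.082).

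Genes that copy and transcribe mitochondrial DNA and process its RNA were listed as 23 symbols, older and newer names included. Of these symbols 17 had rows, with 6 above 0, 11 below and a median of -0.0053. Tfam, which packs and transcribes mitochondrial DNA, was at 10.11 ± 0.0591 and 10.10 ± 0.0314 (-0.016), the RNA polymerase Polrmt at 9.97 ± 0.0623 and 9.95 ± 0.0374 (-0.027), and Lrpprc, which stabilises mitochondrial messages, at 11.56 ± 0.0302 and 11.60 ± 0.0607 (0.043). The single-strand binding protein Ssbp1 was at 9.36 ± 0.0855 and 9.27 ± 0.0869 (-0.087), and the helicase Supv3l1 at 9.33 ± 0.0604 and 9.27 ± 0.0651 (-0.064). The tRNA-processing enzyme Elac2 was at 9.77 ± 0.0677 and 9.87 ± 0.0698 (0.096, limma adjusted p 0.931). None of these pairs of groups was separate.

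Of 10 regulators of mitochondrial biogenesis, 6 were above 0 and 4 below, with a median of 0.0053. Gabpb1, a subunit of the GABP factor that binds the ETS motif printed above, was at 9.26, 9.33, 9.43, 9.36 and 9.33 in the supplied and at 9.26, 9.20, 9.30, 9.28 and 9.28 in the withdrawn embryos. Supplied embryo 1 lay among the withdrawn values and the other supplied embryos above them. The change was -0.078 (95% interval -0.17 to 0.014), with a limma adjusted p of 0.956 and an exact permutation p of 0.0317. Its DNA-binding partner Gabpa was at 11.69 ± 0.0645 and 11.66 ± 0.0443 (-0.032), Nrf1 at 10.38 ± 0.0344 and 10.35 ± 0.0475 (-0.021), and the nuclear receptor Esrra at 6.97 ± 0.0887 and 7.01 ± 0.0663 (0.035).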

How the data were processed

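RNA was measured in sorted gonadal somatic cells of 10 single embryos, 2 ng of total RNA each, with a low-input total RNA kit per the labels' protocols. The authors deposited 1 table of log2 (rlog) values per gene, for which the submitters' processing notes name DESeq2 1.20.1, TopHat2 2.1.1, Trim Galore 0.4.0 and the build mm9. Rlog values hold no counts, so depth is unknown and no count model was used. No source used here gives the strand setting. All 10 columns matched a sample title.

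Genes with a mean of at least 3 were kept, which removed 0 genes, so all 76 members were tested. The whole table was fitted with limma 3.58.1 (R 4.3.3), withdrawn against supplied with a variance trend, at a Benjamini-Hochberg adjusted p of 0.05. Exact permutation tests of means were two-sided over all orders (smallest p 0.00794). The members and lists were chosen with earlier results of these data known. Named by rule were the members of largest change (6 each way), smallest p (6), largest and smallest spread (3 each), highest and lowest level (3 each), 4 structural sites and some fixed members, and, of each pathway list, the 3 of smallest p with 8 fixed genes. Levels per length used the summed exons, untranslated parts included, of GENCODE M21 coding transcripts, and sequences used RefSeq, both on GRCm38 and matched by symbol. The tests were checked on simulated data. Other settings were filters, centring, quantile normalization, sample weights, robust or untrended variance, a replicate block, embryos 2 and 3 of each group averaged, and leaving out each embryo. Added after seeing the data were the median transcript length and the co-variation and list counts without each embryo.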

Additional observations from a re-analysis of the deposited data

Results flagged for a closer look

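Both values given here came from supplied embryo 5, which stood far below the other supplied embryos in Mrpl21 and Mrps25. Mrpl21 was at 8.26 there and at 8.50 to 8.56 in the other 4, a gap of 0.791 of the group's range. Mrps25 was at 9.56 there and at 9.69 to 9.73 in the other 4, a gap of 0.784 of the range. A gap over 0.71 was looked for in 70 groups of 5 embryos, and 2 were found. Chance alone marks about 1 in 20 such groups.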

How the results depend on the processing

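Mitoribosomal members passing the limma test numbered 0 in the fit as reported and in all 19 other settings, and 0 of the 58 named genes passed in any. The median change over the mitoribosomal members stayed within the SD of the embryos' medians (0.0408) of -0.0086 in every setting, though it was 0.0067 with embryos 2 and 3 of each group averaged, whose titles share a first number, and between -0.022 and 0.0042 when 1 embryo was left out. Genes passing in the whole table numbered 3, but 1 with averaged embryos, without the variance trend or with quantile normalization, 5 with robust variance or sample weights, and 0 to 4 when 1 embryo was left out (0 without supplied embryo 1 or withdrawn embryo 5, 1 without withdrawn embryo 2 or 4). With the replicate number as a block 2 genes and 0 members passed. No source used here says whether the numbers pair the embryos. Same-numbered deviations correlated above 0.1 in 1 of 5 pairs, and 1 of 10 embryos correlated best with its own number. Such correlations cannot decide whether embryos were paired. The cause of these differences was not tested.

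Changes of 13 named genes took the other sign under some setting, and that of Lars2 became 0. With averaged embryos the values were 0.0025 in Mrpl44, 0.0038 in Mrpl42, 0.017 in Mrpl38, 0.039 in Mrpl12, 0.017 in Mrps18b, 0.0018 in Mrpl11, 0.00010 in Mrps21, 0.010 in Mrps18c and 0.0019 in Mrpl46. Median centring gave 0.00022 in Mrpl38. Quantile normalization gave 0.0013 in Mrpl44, 0.0068 in Mrps18c and -0.0049 in Tufm, and 0 in Lars2, which held the same rank in every embryo. Sample weights gave -0.0021 in Mrps27 and -0.0053 in Tufm. Leaving out 1 embryo gave ranges of -0.056 to 0.0059 in Mrpl11, -0.052 to 0.031 in Mrpl12, -0.061 to 0.0048 in Mrpl23, -0.020 to 0.030 in Mrpl38, -0.071 to 0.015 in Mrpl42, -0.029 to 0.0056 in Mrpl44, -0.028 to 0.0057 in Mrpl46, -0.042 to 0.0047 in Mrpl48, -0.048 to 0.034 in Mrps18b, -0.019 to 0.017 in Mrps18c, -0.012 to 0.017 in Mrps27 and -0.023 to 0.022 in Tufm. Unknown depth, 5 embryos a group and the shrunken scale limit all of these values.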
